A study of Mus musculus with 6 samples.

Results

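The genes described here are 10 immediate early genes of the mouse, namely Fos, Fosb, Jun, Junb, Jund, Egr1, Atf3, Ier2, Ier3 and Myc. They were taken by symbol from the 38561 genes counted in each library, and all 10 were among the 16425 genes with enough reads to be tested. The mRNA came from scraped small intestinal mucosa of C57BL/6J mice aged 8 to 12 weeks. One group carried an intestine-specific deletion of Rbm47, which encodes an RNA-binding protein that takes part in C-to-U editing of Apob mRNA and binds AU-rich mRNA sequences. Per the study's methods, the deletion was made with a constitutive Cre transgene under the Villin promoter. The Villin promoter is known to act in epithelial cells, which would leave the gene intact in stromal, muscle and immune cells of the same scraping. The control group is labelled wt, and the study's methods name Rbm47 floxed mice as the controls. Each group had 3 pools, each combining RNA of 3 mice of both sexes, so that n is 3 pools per group and the spread is that between pools.

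Immediate early genes are transcribed within minutes of a signal, without new protein synthesis, when growth factors, injury or stress activate MAP kinases and transcription factors such as SRF and ELK1 that wait at their promoters. FOS and JUN proteins pair to form the AP-1 transcription factor, and many of these mRNAs decay fast because their 3′ untranslated regions (UTRs) carry AU-rich elements built on the pentamer AUUUA. MYC pairs with MAX and drives growth genes. In the intestinal crypt it acts downstream of WNT signals, whereas the differentiated villus expresses its antagonists of the MXD family. Dissection and scraping of tissue are themselves known stimuli for these genes.

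The libraries held 31560320 to 38951830 counts on genes, with similar depth in both groups. Rbm47 itself (chromosome 5, 66016549 to 66173117, GRCm38) went against the labels. Its level in CPM, which is the count scaled to the TMM-normalized size of the library, was 603, 625 and 620 in the Rbm47-IKO-labelled libraries and 460, 450 and 472 in the wt libraries, a log2 difference of 0.42 (SE 0.10, edgeR adjusted p = 0.0751). Counts over the whole gene do not separate the deleted part from the rest, so that this check does not settle whether the labels hold. The groups are therefore named by their labels, and each direction given here is that of the Rbm47-IKO-labelled libraries against the wt libraries. Across all genes, 443 of 16425 (2.7%) passed the edgeR quasi-likelihood test at an adjusted p of 0.05 or less, 238 higher and 205 lower in the labelled libraries. All 10 epithelial markers were expressed, with a summed level of 21540 to 25490 CPM in the labelled libraries and 21030 to 22100 CPM in wt. Smooth muscle markers, in contrast, summed to 361, 586 and 3302 CPM in the labelled libraries and 90.7, 2803 and 313 CPM in wt, so that pool 3 of the former and pool 2 of the latter stood apart. In bulk tissue of this kind, fewer cells of a type and less RNA per cell cannot be told apart.

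None of the 10 genes changed by the test. The count was 0 of 10 at an adjusted p of 0.05 or less, against 2.7% of all genes tested (1.45% higher and 1.25% lower). Jund alone had an unadjusted p under 0.05, a mark passed by 16.8% of all genes. DESeq2 called 1 of the 10, again Jund, against 7.83% of the genes it gave an adjusted p, and limma-voom called 0. The fitted log2 difference was above 0 for 7 of the 10 (49.3% of all genes were) and below 0 for Fosb, Atf3 and Ier2. Its median was 0.32 beside -0.01 over all genes. Over all genes the difference rose with GC content (Spearman rho of 0.271), and the 10 genes had a median GC content of 55.8% beside 49.8%. With an offset for GC content their median difference was 0.215. It was 0.229 with smooth muscle markers and 0.231 with Y-linked genes as a covariate. The median was 0.15 without wt pool 1 and 0.49 without wt pool 2, and the signs of Jun, Atf3 and Ier2 turned under some alternatives. For Junb and Jund, or 2 of 10, every labelled library lay above every wt library, as it did for 11.7% of all genes. Summed over the 10 genes, the level was 1088 to 1259 CPM in the labelled libraries and 742 to 1086 CPM in wt, so that the lowest labelled library and the highest wt library nearly met.

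**Figure D1:**
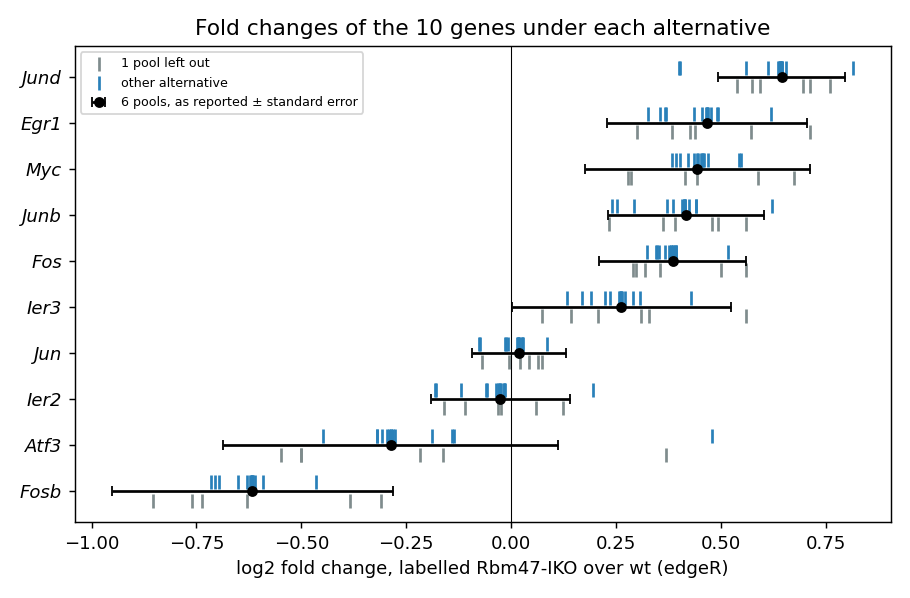
Log2 fold change of each of the 10 genes (x axis, Rbm47-IKO-labelled over wt libraries, edgeR), where the black point and bar are the estimate from 6 pools and its standard error, grey ticks are fits with 1 pool left out and blue ticks are other processing alternatives. Jund lies farthest above 0 at 0.65 and Fosb farthest below at -0.62, and the ticks of Jun, Atf3 and Ier2 fall on both sides of 0.

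The levels of these genes were far apart. Divided by gene length, the normalized level (RPKM) had a mean over the 6 libraries of 151 for Fos, 124 for Junb, 79.1 for Jund, 36.7 for Jun, 25.4 for Atf3, 16.3 for Ier2, 6.36 for Ier3, 2.09 for Fosb, 1.81 for Myc and 1.63 for Egr1. Fos stood at the 98.2 percentile of all tested genes and Egr1 at the 39 percentile, so the list ran from some of the more abundant mRNAs of the mucosa to scarce ones. The order was not equally firm everywhere. The ranges over libraries of Jund and Jun, of Ier2 and Ier3, and of Ier3 and Fosb did not overlap. Fos exceeded Junb in 5 of 6 libraries and Jun exceeded Atf3 in 5, while Fosb exceeded Myc, and Myc exceeded Egr1, in only 4 of 6. Fos and Egr1, which share upstream regulators in SRF and the ELK factors, differed in each library by a ratio of 72.4 to 120 per length.

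**Figure D2:**
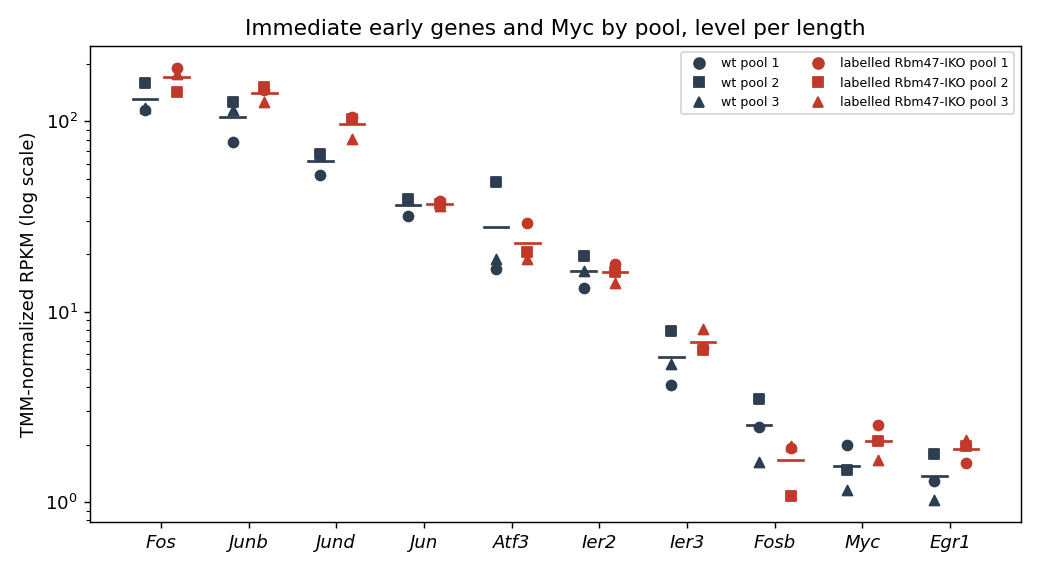
Level per length of each gene in each library (y axis, TMM-normalized RPKM, log scale), with circles, squares and triangles for pools 1, 2 and 3. Fos, Junb and Jund lie highest, Fosb, Myc and Egr1 lowest, and the wt pool 2 square of Atf3 stands above its other points.

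The AU-rich sites of the 3′ UTRs are shown for 8 of the genes because this element marks unstable mRNAs and is the kind of sequence to which RBM47 is known to bind. The pentamer, written ATTTA on the DNA strand of the gene, occurred in the longest 3′ UTR in GENCODE M21 of 9 of the 10 genes, all but Ier2, and in 69.7% of 14131 tested genes with a UTR. Its density was 2.88 per kilobase at the median of the 10 and 1.18 over all genes. By count the 10 were close to all genes, since 4 of the 10 had 3 or more pentamers, as did 38.2% of all genes with a UTR. Ier3, an early response gene that limits apoptosis, held the most at 5 pentamers in 613 bases. Fos held 4 in 815 bases, and was the only member with the longer form TTATTTATT, which 7.74% of genes had. Jun held 4 in 1233 bases, Atf3 held 3, Junb, Egr1 and Myc held 2, and Jund and Fosb held 1. Each 27-base site follows 5′ to 3′ on the strand of the gene, from GENCODE M21 transcripts at GRCm38 coordinates, with capitals for the pentamers.
Fos, chr12:85477102-85477128, plus strand: gtgttttcaATTTATTTAttaagatgg
Fosb, chr7:19303327-19303353, minus strand: cacccccagctATTTAtccctttcctg
Jun, chr4:95049208-95049234, minus strand: cATTTAtaatcataggaaagATTTAgt
Junb, chr8:84977128-84977154, minus strand: tatatttgtgtATTTAacagggagggg
Jund, chr8:70700360-70700386, plus strand: gattccgccctATTTAtgtttctactc
Atf3, chr1:191171243-191171269, minus strand: ccaattccaggATTTAggccttatcat
Ier3, chr17:35822486-35822512, plus strand: aattaatATTTAtgtATTTAtgtatat
Myc, chr15:61990136-61990162, plus strand: aacagatttgtATTTAattgttttttt
The Fos site has a pair of overlapping pentamers and the Ier3 site a pair set close together, whereas the sites of Jund and Fosb are the only ones in their UTRs. A match is a description of letters and does not show that a protein binds there.

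Promoter windows of 250 bases before to 50 bases after the gene start were found for 7 of the 10 genes in RefSeq (GRCm38.p6), for Fos, Fosb, Jun, Junb, Jund, Atf3 and Ier3. The letters TGACG, the core of a cyclic AMP response element, were searched on both strands and were present in 4 of the 7, Fos, Fosb, Junb and Atf3, and in 20.8% of 32851 promoters. The box TATAAA was present in Fos and Junb, or 2 of 7, against 13.6%, and the GC box GGGCGG in 5 of 7, all but Junb and Jund, against 35.7%. The full palindrome TGACGTCA, which contains TGACG (1.79% of promoters), the AP-1 site TGANTCA (7.81%) and the CArG box of SRF (1.63%) had no match in the 7 windows. Sequence more than 250 bases before the start was not searched, so this does not show that these genes lack such sites. Egr1, Ier2 and Myc had no window to search. The TGACG match nearest the start in each of the 4 promoters is shown with the 5 letters in capitals, on the strand of the gene, where CGTCA is the same motif read on the other strand.
Fos, chr12:85473813-85473839, plus strand: gttccgcccagTGACGtaggaagtcca
Fosb, chr7:19310090-19310116, minus strand: ggagttgcgggTGACGcaagcgcgggg
Junb, chr8:84978839-84978865, minus strand: cttcctgacagTGACGcgagccgcctc
Atf3, chr1:191183325-191183351, minus strand: taatagcattaCGTCAgcctgggattg
Counted from the RefSeq start, which in Atf3 lies inside the gene as counted in the tables, the match begins 66 bases before it in Fos, 60 in Fosb, 106 in Junb and 7 in Atf3.

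Of the FOS family, which supplies the partner that cannot pair with itself, Fos (ENSMUSG00000021250, chromosome 12, 85473890 to 85477273) was abundant in every library. Its level was 452, 334 and 419 CPM in the Rbm47-IKO-labelled libraries and 269, 377 and 277 CPM in wt. The groups overlapped, since wt pool 2 lay above labelled pool 2. The means of 401.5 ± 60.8 and 307.5 ± 60.1 CPM (SD, n = 3) differed by 0.38 on the log2 scale (SE 0.18, edgeR adjusted p = 0.328). Fosb (ENSMUSG00000003545, chromosome 7, 19302721 to 19310045), a close relative with a more restricted expression, went the other way. It was at 7.16, 4.04 and 7.38 CPM in the labelled libraries and 9.32, 13.1 and 6.06 CPM in wt, with wt pool 2 highest and wt pool 3 inside the range of the labelled libraries. The log2 difference was -0.62 (SE 0.34, edgeR adjusted p = 0.422), and it was -0.31 without wt pool 2 and -0.39 without labelled pool 2.

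The JUN family, whose members can pair with each other as well as with FOS proteins, held the gene nearest the threshold. Jund (ENSMUSG00000071076, chromosome 8, 70697739 to 70700616), the member that is expressed most steadily in resting cells, was at 303.5, 297 and 232 CPM in the Rbm47-IKO-labelled libraries and at 150.5, 193.5 and 188.5 CPM in wt. Every labelled library lay above every wt library. The means of 277.6 ± 39.4 and 177.5 ± 23.6 CPM (SD, n = 3) differed 1.56-fold, or by 0.65 on the log2 scale (SE 0.15, unadjusted p = 0.00317), and the edgeR adjusted p of 0.0736 missed the threshold. It passed with DESeq2 (adjusted p = 0.00655) and in edgeR with scaling by library size alone (adjusted p = 0.0456). Jund has the highest GC content of the 10 genes, 67.1% beside a median of 49.8% over all genes, and with an offset for GC content the log2 difference was 0.40 (edgeR adjusted p = 0.315). Y-linked genes, which follow the share of male RNA in a pool, summed to 53.0 to 144 CPM in the labelled libraries and 87.9 to 220 CPM in wt, and with their level as a covariate the Jund difference was 0.56 (edgeR adjusted p = 0.246).

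Junb (ENSMUSG00000052837, chromosome 8, 84976909 to 84978748), which can oppose JUN in growth control, was at 269, 279 and 232.5 CPM in the labelled libraries and 143, 231.5 and 211 CPM in wt. The groups did not overlap but nearly touched at labelled pool 3 and wt pool 2, and wt pool 1 was the lowest. The log2 difference was 0.42 (SE 0.19, edgeR adjusted p = 0.316), 0.24 with the GC offset and 0.23 without wt pool 1. Jun (ENSMUSG00000052684, chromosome 4, 95049034 to 95052222) overlapped fully. It was at 122, 118 and 114 CPM in the labelled libraries and at 102, 125 and 123 CPM in wt, and the log2 difference was 0.02 (SE 0.11, edgeR adjusted p = 0.96), or -0.01 with upper quartile scaling. The antisense gene Junos overlaps Jun and had only 11 to 24 counts per library, and Gm11175, antisense within Jund, had 0. Since the strand setting of the counting is not given, these counts do not bound the antisense reads over Jun and Jund.

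As shares of the summed level per length of the FOS and JUN genes, Fos, Junb, Jund, Jun and Fosb together with their relatives Fosl1 and Fosl2, Fos made up 26.4 to 34.7%, Junb 22 to 28.2% and Fosl2 16.6 to 20.9% over the 6 libraries. Jund made up 15.7 to 19.2% in the Rbm47-IKO-labelled libraries and 14.2 to 15.6% in wt. Jun made up 6.39 to 6.99% in the former and 8.24 to 9.13% in the latter. Fosb made up 0.2 to 0.383% and 0.384 to 0.735%. The shares of these 3 genes did not overlap between the groups, though those of Jund and of Fosb nearly met. Since shares of 1 whole are tied to each other, they show unequal levels and not which gene differed. Fosl1, an AP-1 gene of injury and migrating cells, made up 0.065 to 0.0943%.

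**Figure D3:**
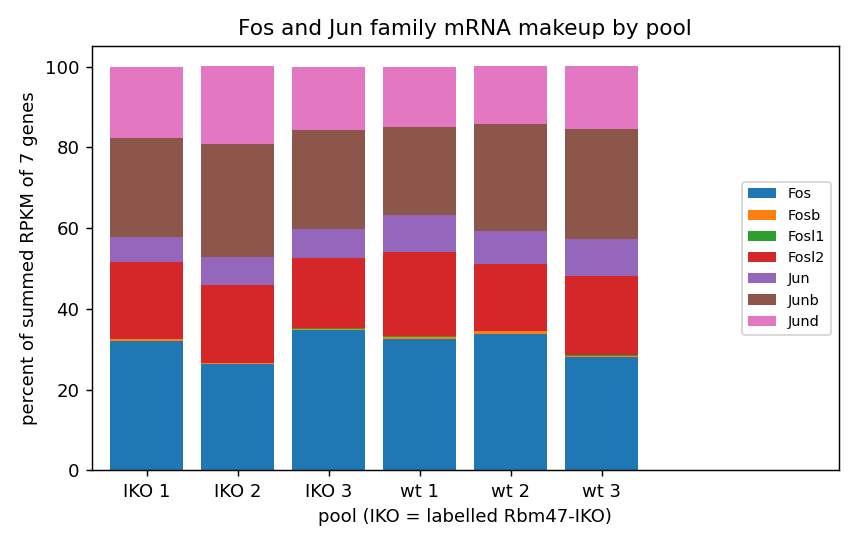
Share of each of 7 FOS and JUN family genes in their summed level per length (y axis, percent of summed RPKM), with 1 bar per library. Fos and Junb fill the largest parts of each bar, and the Jund part is 15.7 to 19.2% in the bars labelled Rbm47-IKO and 14.2 to 15.6% in the wt bars.

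Among the AP-1 partner genes, which include the ATF, BATF and small MAF proteins, 1 of 13 tested changed (2.7% of all genes did), and the median log2 difference was 0.21. That median was 0.09 with the GC offset, 0.063 with the Y-linked covariate and 0.085 without wt pool 1. Unadjusted, 5 of 13 had an edgeR p under 0.05, as did 16.8% of all genes. Atf2, which pairs with JUN and is switched on by stress-activated kinases, was at 29.0, 28.5 and 29.3 CPM in the Rbm47-IKO-labelled libraries and 49.6, 44.7 and 56.1 CPM in wt. It fell by 0.79 on the log2 scale (SE 0.11, edgeR adjusted p = 0.0164), and the groups were far apart. Its adjusted p was 0.0784 with the Y-linked covariate and 0.053 with the pool number as a replicate block. At up to 0.131, it was also above 0.05 without labelled pool 1, 2 or 3 or without wt pool 3. The difference itself stayed between -0.87 and -0.70 with any 1 pool left out. The next lowest p in the list was that of Jdp2, a repressor that pairs with JUN, at 15.8, 16.3 and 7.20 CPM in the labelled libraries and 7.38, 4.32 and 3.16 CPM in wt, with a log2 difference of 1.41 (edgeR adjusted p = 0.121). It passed with DESeq2 (adjusted p = 0.00247) and in edgeR with the smooth muscle covariate (adjusted p = 0.0175). Labelled pool 3 was the low labelled library for Jdp2, just under wt pool 1.

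For the remaining immediate early genes, Egr1, Ier3, Ier2 and Atf3, the groups overlapped. Egr1 (ENSMUSG00000038418, chromosome 18, 34859823 to 34864984), a zinc finger factor that responds to growth factors, was at 7.16, 8.79 and 9.43 CPM in the Rbm47-IKO-labelled libraries and 5.76, 8.01 and 4.58 CPM in wt. The wt pool 2 value lay above labelled pool 1, and the log2 difference was 0.47 (SE 0.24, edgeR adjusted p = 0.387), or 0.71 without wt pool 2 and 0.30 without wt pool 3. Ier3 (ENSMUSG00000003541, chromosome 17, 35821684 to 35822923) was at 7.31, 7.13 and 9.13 CPM against 4.68, 8.96 and 5.98 CPM, again with wt pool 2 among the high libraries. Its log2 difference was 0.26 (SE 0.26, edgeR adjusted p = 0.712), and it was 0.07 without wt pool 1, 0.14 without labelled pool 3 and 0.56 without wt pool 2.

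Ier2 (ENSMUSG00000053560, chromosome 8, 84661331 to 84662852), a nuclear early response protein, was at 27.2, 24.7 and 21.6 CPM in the labelled libraries and 20.2, 29.9 and 24.9 CPM in wt. The libraries were fully mixed, and the log2 difference was -0.03 (SE 0.17, edgeR adjusted p = 0.965). Atf3 (ENSMUSG00000026628, chromosome 1, 191170296 to 191183340), a stress-induced factor of the ATF family, was at 58.1, 41.0 and 37.4 CPM in the labelled libraries and 33.3, 95.9 and 37.3 CPM in wt. The wt pool 2 library alone set the sign, since the log2 difference of -0.29 (SE 0.40, edgeR adjusted p = 0.815) became 0.37 without that pool. That library was also the second highest for smooth muscle markers, and labelled pool 3, the highest for them, had Atf3 at 37.4 CPM. With the smooth muscle covariate the Atf3 difference was -0.30, and no cause of the high wt pool 2 value was tested.

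Myc (ENSMUSG00000022346, chromosome 15, 61985391 to 61990374) was scarce in this tissue. It had 237, 215 and 147 counts in the Rbm47-IKO-labelled libraries and 184, 151 and 114 in wt, or 6.85, 5.68 and 4.50 CPM against 5.41, 3.98 and 3.13 CPM. The ranges overlapped, with wt pool 1 above labelled pool 3. The means of 5.67 ± 1.17 and 4.17 ± 1.15 CPM (SD, n = 3) differed by 0.44 on the log2 scale (SE 0.27, edgeR adjusted p = 0.474), or by 0.67 without wt pool 1, 0.28 without wt pool 3 and 0.29 without labelled pool 1. Markers of cycling cells, which like Myc belong to the crypt, summed to 132 to 219 CPM in the labelled libraries and 155 to 255 CPM in wt. On the log2 scale 4 of 5 were below 0. Their median log2 difference was -0.16, and it turned to 0.10 with 4 of 5 above 0 without wt pool 1. By edgeR or DESeq2 0 of 5 were called, and 1 had an unadjusted edgeR p under 0.05. Over all genes the shares were 2.7% with edgeR, 7.83% with DESeq2 and 16.8% unadjusted.

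Of the MYC and MAX network, 0 of 12 genes changed with edgeR, DESeq2 or limma-voom, with 1 unadjusted edgeR p under 0.05, where all genes gave 2.7% with edgeR, 7.83% with DESeq2 and 16.8% unadjusted, and with a median log2 difference of 0.03. That median lay between -0.025 without labelled pool 1 and 0.14 without labelled pool 3. Mxd1, an antagonist of MYC in differentiated cells, exceeded Myc per length by a ratio of 121 to 289 in every library. Mnt, a repressor that competes with MYC for MAX, had the lowest p. It was at 24.9, 28.3 and 30.4 CPM against 19.0, 19.2 and 22.4 CPM, without overlap, and differed by 0.46 on the log2 scale (edgeR adjusted p = 0.107). Mxd4, of the same family as Mxd1, differed by -0.21 (edgeR adjusted p = 0.536), or by -0.04 without wt pool 3.

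Of 22 MYC target genes of ribosome production, polyamine synthesis and metabolism, 0 changed by the edgeR test (2.7% of all genes did). An unadjusted edgeR p under 0.05 was found for 4 (16.8% of all genes). DESeq2 called 1, Odc1 (7.83% of all genes). The fitted difference was above 0 in 21 of the 22 (49.3% of all genes were), with a median of 0.21. The labelled libraries lay above the wt libraries without overlap for 5 (11.7% of all genes were so). With wt pool 3 left out 13 of the 22 were above 0 and the median was 0.06, and with labelled pool 1 left out 13 were above 0 and the median was 0.07, so this lean rested on those libraries. Odc1, the rate-limiting enzyme of polyamine synthesis, was at 103.4, 104.3 and 104.1 CPM in the labelled libraries and 48.1, 81.8 and 73.6 CPM in wt, a log2 difference of 0.62 (edgeR adjusted p = 0.14). The labelled libraries were almost equal to each other, and wt pool 1 was the lowest library. Rrp9, of ribosomal RNA processing, differed by 0.61 (edgeR adjusted p = 0.239). Npm1, a nucleolar protein, was below 0, at -0.28.

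The pools were not equally high for the 10 genes. In wt pool 1 the level was the lowest of the 6 libraries for 7 of the 10 genes, and in wt pool 3 for Egr1 and Myc or 2 of 10, while labelled pool 2 was lowest for Fosb. The highest library was wt pool 2 for 4 genes, labelled pool 1 for 3, labelled pool 3 for 2 and labelled pool 2 for 1. Relative to each gene's own mean, the median deviation over the 10 genes was 0.21, 0.02 and 0.03 on the log2 scale in the labelled libraries and -0.33, 0.14 and -0.25 in wt. One wt library was thus as high as the labelled ones, and the other two were low.

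**Figure D4:**
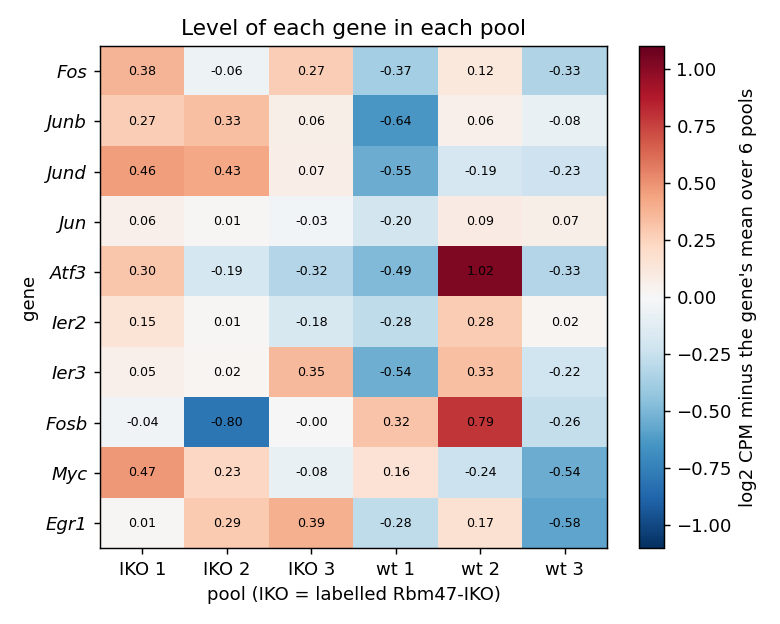
Level of each of the 10 genes in each library as log2 CPM minus the mean of that gene over the 6 pools (color), with genes in lines and pools in columns. The wt pool 1 column is lowest for 7 of the 10 genes, and wt pool 2 is highest for 4.

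Values that bear on handling and on other cells were set beside this pattern. The smooth muscle sum was lowest in wt pool 1, at 90.7 CPM, the library lowest for most of the 10 genes, and it was high in wt pool 2 and labelled pool 3. Fibroblast markers, all 5 expressed, summed to 136 to 324 CPM in the labelled libraries and 81.2 to 386 CPM in wt. Neutrophil markers, which rise in injured tissue, summed to at most 0.264 CPM. B cell and plasma cell markers were all below 0 on the log2 scale. They summed to 56.6, 113 and 101 CPM in the labelled libraries and 153, 94.9 and 134 CPM in wt. Their median log2 difference was -0.75, or -0.37 without labelled pool 1. Of the 6, 0 were called by edgeR or DESeq2 and 0 had an unadjusted edgeR p under 0.05. All genes gave 2.7% with edgeR, 7.83% with DESeq2 and 16.8% unadjusted. The 4 endothelial markers had a median of -0.38, which turned to 0.18 without wt pool 2, and their part and that of B cells in the levels of the 10 genes was not tested. Without the labelled pool 3 and wt pool 2 libraries, a comparison added after the data were seen, 0 of the 10 genes were called. The log2 difference was 0.52 for Fos, 0.62 for Junb, 0.82 for Jund (edgeR adjusted p = 0.0565) and 0.48 for Atf3. It was above 0 for 9 of the 10, with Jun at only 0.09, and Fosb stayed below 0 at -0.47. Time from death to lysis and the order of dissection are not given in the sources used here, and the part of handling in these levels was not tested.

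Heat shock genes, which respond to warming and protein damage, gave 0 called of 15 by edgeR or DESeq2. An unadjusted edgeR p under 0.05 was found for 1, and the median log2 difference was 0.02. Shares over all genes were 2.7% with edgeR, 7.83% with DESeq2 and 16.8% unadjusted. The median had no firm sign, at 0.13 with the GC offset, -0.02 with upper quartile scaling, -0.10 without wt pool 3 and -0.08 without labelled pool 1. Their summed level was 722.5, 574 and 529 CPM in the Rbm47-IKO-labelled libraries and 681, 636 and 500.5 CPM in wt, highest in pool 1 of both groups. The lowest p were those of Bag3, a chaperone partner, at a log2 difference of 0.50 (edgeR adjusted p = 0.118), and of Hspa1a, the inducible HSP70, at 1.25 (edgeR adjusted p = 0.299). Hspa1a had only 25 to 59 counts in the labelled libraries and 7 to 29 in wt, and its reads are hard to tell from those of its near-identical copy Hspa1b.

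Of 36 further immediate early genes, 33 had enough reads to be tested, and 2 of them rose (1.45% of all genes did) in the Rbm47-IKO-labelled libraries. Plk3, a stress-responsive kinase of the Polo family, was at 52.6, 38.9 and 44.0 CPM in the labelled libraries and 18.6, 19.5 and 20.6 CPM in wt. The groups were far apart, at 1.21 on the log2 scale (SE 0.13, edgeR adjusted p = 0.0095). Rhob, a short-lived small GTPase, was at 370.2, 334 and 274.5 CPM against 136, 170.4 and 149 CPM, also without overlap, and differed 2.15-fold (SE 0.15 on the log2 scale, edgeR adjusted p = 0.0145). With any 1 pool left out, both differences stayed at a log2 of 1 or more. Their adjusted p, at up to 0.107, was above 0.05 without labelled pool 2 or wt pool 3. For Rhob it was also above 0.05 without labelled pool 1, with the Y-linked covariate (0.0742) and with the pool number as a replicate block.

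The other genes of that list lay on both sides of 0. In all, 24 of 33 were above it (49.3% of all genes were), with a median of 0.26. That median was 0.17 with the GC offset and 0.20 to 0.38 with 1 pool left out. Unadjusted, 11 of 33 had an edgeR p under 0.05, as did 16.8% of all genes. The labelled libraries were above the wt libraries without overlap for 10 of 33 (11.7% of all genes were so), and below for Mcl1, an inhibitor of apoptosis. Besides Plk3 and Rhob the 10 were Nr4a3, Klf2, Klf4, Btg2, Gadd45b, Nfkbiz, Csrnp1 and Trib1, none of which passed the edgeR test. DESeq2, which called 7.83% of all genes, called 3 of them, Gadd45b (adjusted p = 0.00412), Trib1 (0.0169) and Csrnp1 (0.0317). Gadd45b, a stress sensor upstream of p38 and JNK kinases, was at 21.6, 21.02 and 16.6 CPM against 10.3, 13.6 and 7.08 CPM, a log2 difference of 0.93 (edgeR adjusted p = 0.095). In contrast, Dusp1, the phosphatase that ends MAP kinase signals, overlapped at 13.8, 13.5 and 16.4 CPM against 10.2, 18.6 and 10.4 CPM, with wt pool 2 highest. The summed level of the list was 3459 to 3822 CPM in the labelled libraries and 2851 to 3053 CPM in wt, for which an exact two-sided permutation test with 3 pools against 3 cannot give a p below 0.1. Dusp1, Gadd45b and the genes without overlap were chosen after their values were seen.

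**Figure D5:**
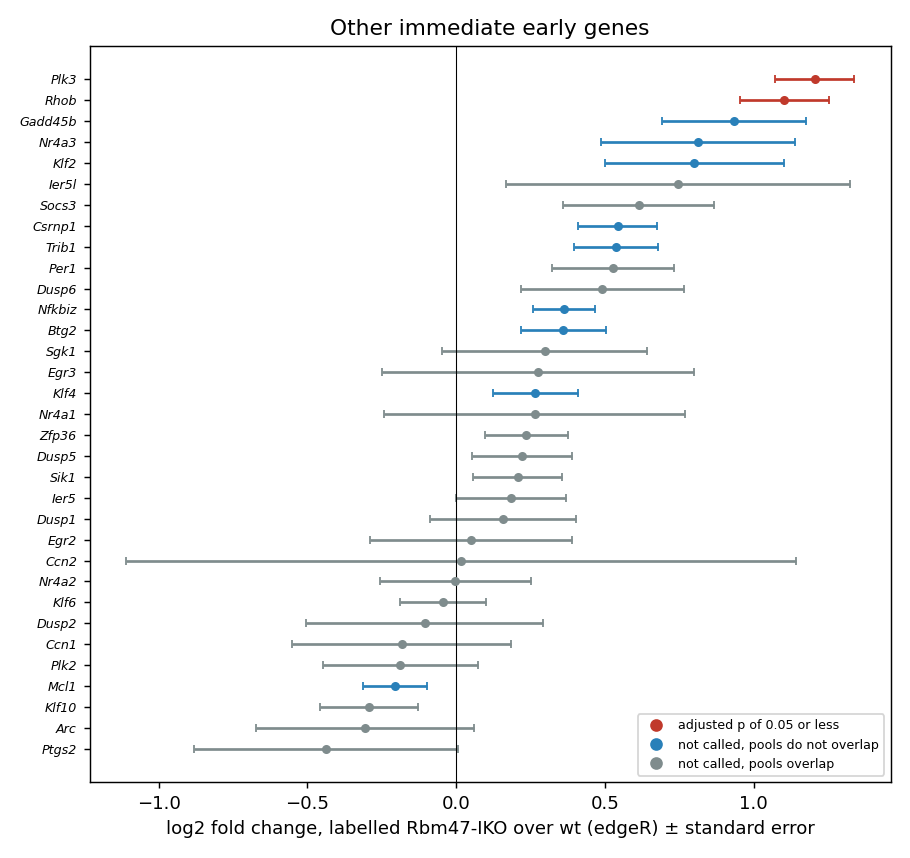
Log2 fold change (x axis, Rbm47-IKO-labelled over wt libraries, edgeR, bars are standard errors) of the 33 further immediate early genes tested. Plk3 at 1.21 and Rhob at 1.1, in red, are the called genes, and blue marks the uncalled genes whose pools did not overlap.

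Upstream of these genes, 1 of 23 MAP kinase and SRF genes changed (2.7% of all genes did), and the median log2 difference was 0.02. The count was 3 with DESeq2, which called 7.83% of all genes, and 3 with library size scaling, which called 614 of 16425. It was 2 with upper quartile scaling (533 of 16425) and 0 with the Y-linked covariate (58 of 16425). With the pool number as a replicate block it was also 0 (100 of 16425). The median turned to -0.015 with upper quartile scaling. Unadjusted, 7 of 23 had an edgeR p under 0.05, as did 16.8% of all genes. Map2k3, the kinase that activates p38, was at 126, 140 and 118 CPM in the Rbm47-IKO-labelled libraries and 65.8, 82.2 and 78.3 CPM in wt. It rose by 0.76 on the log2 scale (SE 0.12, edgeR adjusted p = 0.0256), without overlap. Its adjusted p was 0.0971 with the Y-linked covariate, and it was above 0.05 with the replicate block. At up to 0.162, it was also above 0.05 without labelled pool 1, 2 or 3 or without wt pool 3. Mapk8, the kinase JNK1, had the next lowest p, at 57.7, 57.8 and 62.9 CPM against 83.4, 82.2 and 113 CPM, a log2 difference of -0.64 (edgeR adjusted p = 0.0639), and passed with DESeq2 (adjusted p = 0.00609). Mapk3, at 0.43 (edgeR adjusted p = 0.0898), also passed with DESeq2 (adjusted p = 0.035). Srf, at 0.455 (edgeR adjusted p = 0.229), and Elk1, at 0.51 (edgeR adjusted p = 0.363), were higher without overlap but were not called. Elk3 was lower without overlap, at -0.28 (edgeR adjusted p = 0.548). The list as a whole pointed both ways, with 8 of 23 genes higher and 4 of 23 lower in the labelled libraries without overlap, as were 11.7% and 11.6% of all genes.

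The genes outside these lists whose log2 level followed Fos most closely over the 6 libraries were Pim3 (Pearson r of 0.97), Maml3 (0.97), Pkdcc (0.96), Lgmn (0.96) and Akap1 (0.95), among 7792 genes with a mean of 10 CPM or more, of which 23 had an r of 0.9 or more. They are given as a description over 6 points that share group and library. Within the list, Fos was most like Ier3 (0.81) and least like Fosb (0.11), while Junb and Jund followed each other (0.91), as did Ier2 with Jun (0.89) and with Atf3 (0.88).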

How the data were processed

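PolyA RNA of 6 mucosal pools, 3 per group, was sequenced on an Illumina instrument. The authors deposited for each pool a table of raw read counts for 38561 Ensembl genes, together with CPM and RPKM columns that the authors computed from those counts and that were not used here. The submitters' processing notes name STAR 2.5.1a, Subread, featureCounts 1.4.6-p5 and GRCm38. The strand setting of the counting is not given in the sources used here. Where reads of antisense genes overlap, they could thus not be separated. Symbols came from GENCODE M21, in which 36639 genes matched (the counted Jund begins upstream of the gene there), and 0.369% of counts fell on genes without a match.

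Counts were tested with edgeR 4.0.16 in R 4.3.3 (filterByExpr, TMM, glmQLFTest, no covariate) over 16425 genes with Benjamini-Hochberg adjustment at 0.05. CPM and RPKM values in the text were recomputed from the deposited counts on TMM library sizes. The differences are log2 values fitted from the deposited counts. Alternatives were DESeq2 1.42.0, RLE, upper quartile and library size scaling, other filters (none, or 1 CPM in 3 pools), a robust fit, limma-voom (limma 3.58.1), a replicate block, offsets for GC content (lowess span 0.3), covariates from smooth muscle and Y-linked genes, and leaving out each pool. The test was tested on simulated data. Pools of the same group differed from each other by more than sampling noise, and the reported values use every pool. Python 3.11.15 was used for sequences and figures. Likeness to Fos was the Pearson correlation of log2(CPM + 0.5).

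The genes and lists were chosen with earlier results of these data known. Named were Rbm47, the 10 genes, every called gene of each list or, where fewer than 2 were called, the 2 with the lowest p, and the 5 genes most like Fos. The other listed genes named in the text were chosen after their values were seen. Atf7, on the list of AP-1 partner genes, was not analysed here.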

Additional observations from a re-analysis of the deposited data

How the results depend on the processing

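Over the 10 genes and 20 alternatives each, 186 of 200 fitted differences kept their sign and their side of the threshold, 2 (Jund) passed it and 12 changed sign, none of the latter from a called gene. Among the 10 genes, 1 was called with DESeq2 and 1 with library size scaling, Jund both times, and 0 without any 1 pool. The log2 fold change of Jun reversed to -0.011 with upper quartile scaling, -0.078 with the GC offset, -0.073 with that offset and the replicate block, -0.0071 with the muscle covariate and -0.014 with the Y-linked covariate, and ranged from -0.069 to 0.075 with 1 pool left out. Atf3 ranged from -0.55 to 0.37 and Ier2 from -0.16 to 0.12 with 1 pool left out, and without the 2 muscle-rich pools together they were 0.48 and 0.20. The number of genes called was 1131 with DESeq2, 270 with the GC offset, 716 with the muscle covariate, 58 with the Y-linked covariate, and 0 to 431 with 1 pool left out, the 0 being without labelled pool 2. It was 11 without wt pool 3, 32 without labelled pool 1 and 119 without labelled pool 3. Of the further immediate early genes, 5 were called with DESeq2, 1 with the Y-linked covariate and 0 to 3 with 1 pool left out. The cause of these shifts was not tested.

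With the pool number as a replicate block, 100 genes, 0 of the 10 genes and 1 further immediate early gene were called, and with the GC offset and the replicate block 56, 0 and 0. The deviations of same-numbered pools correlated at 0.408, -0.00258 and -0.277, and the labels do not say that a number marks a shared batch, so the numbers were not taken as pairs. Atf2, Rhob and Map2k3 had adjusted p of 0.053, 0.0604 and 0.066 with the block, and 0.0986, 0.0882 and 0.115 with the block and the GC offset, where Plk3 had 0.0522. Depth was lowest for the scarce genes, where Myc rested on 114 to 237 counts and Fosb on 153 to 497 counts per pool.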

Other observations

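Some ratios of these genes within a library, in which the scaling of the library cancels, differed between the groups without overlap. They were chosen after their values were seen and were not tested. The ratios of Fos to Jun, Fos to Egr1 and Mxd1 to Myc overlapped. How many gene pairs separate in this way was not computed, and among single genes 23.3% did in either direction. Effects of GC content need not cancel in a ratio. It is 67.1% in Jund, 62.6% in Junb, 55.5% in Jun, 51.9% in Fos and 56% in Fosb. Jund exceeded Jun per length by a ratio of 2.76, 2.79 and 2.25 in the Rbm47-IKO-labelled libraries and 1.64, 1.72 and 1.70 in wt. Junb exceeded Jun by 3.83, 4.11 and 3.52 against 2.43, 3.22 and 2.98. Fos exceeded Fosb by 101, 132 and 90.5 against 46.0, 45.9 and 72.8. Such a ratio shows that 2 genes differed unequally and not which of them did.

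The libraries also differed in traces of other tissue. Pancreatic acinar genes, with digestive enzymes among them, summed to 16.1 CPM in labelled pool 3 and to at most 0.37 CPM in each other library. Markers of enteric neurons and glia summed to 7.17 CPM in labelled pool 3 and 5.32 CPM in wt pool 2, the muscle-rich libraries, and to 1.44 to 1.76 CPM in the others.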
